A study of Mus musculus with 23 samples.

Results

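Tissue punches of 11 saline-injected mice were split by how much RNA each punch held for Slc17a7, the gene of the vesicular glutamate transporter VGLUT1. The 11 punches were ranked by the log2 value of the only Slc17a7 probe with values in the authors' table. The 5 punches with the most Slc17a7 RNA (Slc17a7-high) were set against the 5 with the least (Slc17a7-low), and the punch in the middle was left out, so that 10 of the 23 samples of the series enter the comparison. Each sample was a punch of the nucleus accumbens of 1 C57BL6 mouse, taken 1 h after an intraperitoneal injection and measured on 1 Illumina MouseWG-6 v2 array. The saline mice comprised 5 heterozygotes for the Foxp2 S321X allele (S321X/+, 2 males and 3 females) and 6 wild-type littermates (3 males and 3 females). Another 12 mice, 6 heterozygotes and 6 wild types, had received cocaine at 15 mg/kg, and they took no part in the ranking. S321X is a premature stop in Foxp2, present in the germ line and therefore in every cell of the heterozygotes. The labels do not state the age of the mice.

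VGLUT1 loads glutamate into synaptic vesicles and is made by the excitatory neurons of cortex, hippocampus and basolateral amygdala, whereas thalamic and many other subcortical excitatory neurons use VGLUT2, the product of Slc17a6. The nucleus accumbens lies ventrally in the striatum and consists mostly of GABAergic spiny projection neurons that carry D1 or D2 dopamine receptors, with sparse interneurons that release acetylcholine or peptides. It receives VGLUT1-bearing axons from cortex, but the cell bodies that make the transcript lie outside it, in neighbouring cortex, endopiriform nucleus and claustrum among other places. In a bulk punch, fewer cells of a type and less RNA per cell cannot be told apart.

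The Slc17a7 values that chose the groups were 11.23, 11.08, 10.74, 10.73 and 10.58 (log2 intensity) in the Slc17a7-high punches, and 10.49, 10.32, 10.08, 9.85 and 8.42 in the Slc17a7-low punches. In the order of these values the Slc17a7-high punches were wild-type 2, heterozygous 2 and wild-type 1, 6 and 5, and the Slc17a7-low punches were wild-type 3, heterozygous 1, heterozygous 4, wild-type 4 and heterozygous 3. The punch left out, heterozygous 5, stood at 10.54. The last punch inside the high group and the first inside the low group were thus only 0.09 log2 units apart, and the ranking cut through a continuous series of values. The lowest punch, heterozygous 3, stood far below the rest. Mean Slc17a7 was 10.87 ± 0.27 in the high punches and 9.83 ± 0.83 in the low punches (SD, n = 5 each), a difference of 1.04, or 0.69 when heterozygous 3 was left out. Heterozygotes made up 1 of 5 high and 3 of 5 low punches, which Fisher's exact test (two-sided) did not separate (p = 0.524, adjusted over 2 tests p = 1.00). Males made up 3 of 5 high and 2 of 5 low punches (exact p = 1.00).

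**Figure D1:**
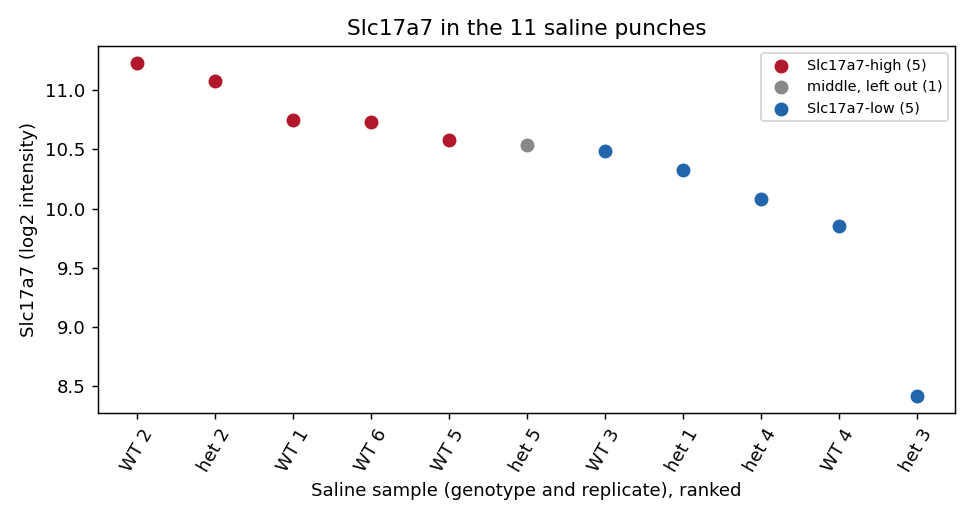
Slc17a7 (log2 intensity, vertical axis) in each of the 11 saline punches, ordered by that value (horizontal axis: genotype and replicate number, with het for S321X/+ and WT for wild type). Each point is 1 punch. The values fall gradually to 9.85 and then drop to 8.42 in heterozygous 3.

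Of 20 markers of striatal projection neurons, 18 had values. Ppp1r1b (DARPP-32, the dopamine-regulated phosphatase inhibitor) averaged 13.98 ± 0.16 in Slc17a7-high and 14.12 ± 0.14 in Slc17a7-low punches (SD, n = 5 each). The D1 receptor gene Drd1 averaged 12.73 ± 0.08 in the high and 12.75 ± 0.15 in the low punches. Between 16314 and 17649 probes were detected on each saline array. Foxp2 lay between 8.32 and 8.75 in the 5 heterozygous saline punches and between 8.87 and 9.21 in the 6 wild-type ones, so its values did not overlap between genotypes. Foxp2 itself differed by 0.14 ± 0.16 (SE) between Slc17a7-high and Slc17a7-low punches, by 0.02 with genotype and sex removed, by -0.39 within heterozygotes and by 0.01 within wild types.

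Beside Slc17a7, 9245 genes had values and were detected on at least 5 saline arrays. Their median difference, Slc17a7-high minus Slc17a7-low, was 0.01. The 5 high and the 5 low values did not overlap and the means differed by at least 0.5 for 19 genes that were higher in the high punches (0.206%) and 4 that were lower (0.0433%). Since the groups were formed from a value measured in the same punches, these counts describe the split and were given no test. Regardless of size, 50 genes were higher without overlap (0.541%) and 15 were lower (0.162%). The 23 genes numbered 41 without wild-type 1, 35 without wild-type 5, 46 without heterozygous 1 and 40 without heterozygous 4. They numbered 27 without wild-type 2, 31 without heterozygous 2, 29 without wild-type 6, 33 without wild-type 3 and 27 without wild-type 4. Without heterozygous 3 the count fell to 19. Groups of 4 overlap less readily than groups of 5 by construction, but what moved each count was not tested. Among the higher genes were Tbr1, Cck, Vip, Bdnf and Rspo3, and among the lower ones Nts.

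Among markers of excitatory cortical neurons, only Tbr1 separated the groups, beside Slc17a7 itself. Tbr1, a T-box factor of early-born glutamatergic neurons of cortex, had 9.21, 9.18, 8.75, 9.01 and 9.31 in the Slc17a7-high punches and 8.63, 8.31, 8.68, 7.91 and 6.50 in the Slc17a7-low punches, in the order of the ranking. Every high punch was above every low one, and the low group held heterozygous 3 far below its other members. The difference was 1.09 ± 0.34 (SE) with that punch and 0.71 without it. Neurod2, a basic helix-loop-helix factor of the same neurons, had 9.52, 9.69, 9.62, 9.65 and 9.39 in the high punches and 9.26, 9.59, 8.74, 8.68 and 7.73 in the low punches. Heterozygous 1, a low punch, reached into the high range, so that the groups overlapped; the difference was 0.77 ± 0.27, or 0.51 without heterozygous 3. The vesicular zinc transporter gene Slc30a3 was higher by 0.91 ± 0.39, or 0.50 without heterozygous 3, again with overlap. Beside Slc17a7, 6 of the 11 markers listed for excitatory cortical neurons had values, and 6 of these 6 were higher in the high punches, with a median difference of 0.51 against 0.01 over all genes. The smallest were Mef2c at 0.25 ± 0.11, Nrgn at 0.14 ± 0.12 and Lmo3 at 0.13 ± 0.16, all of which are also expressed in striatum. The mean deviation of these 6 genes from their average over the saline punches was 0.34, 0.12, 0.24, 0.35 and 0.31 in the high punches and -0.02, 0.04, -0.23, -0.09 and -1.08 in the low punches. On that measure too the groups did not overlap, and heterozygous 3 was lowest. Without heterozygous 3 the list median was 0.37. The mean deviation differed by 0.55 over all 10 punches. Read by rank in Slc17a7 within each genotype, a reading chosen after seeing the data, it differed by 0.72 within heterozygotes and 0.24 within wild types.

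A pair of peptides separated the groups in the same direction. Cck, which encodes cholecystokinin, a peptide abundant in cortical neurons, had 10.72, 10.80, 10.72, 10.70 and 10.86 in Slc17a7-high punches and 9.82, 10.28, 9.87, 9.55 and 9.11 in Slc17a7-low punches. The high punches lay within a narrow band, at 10.76 ± 0.07, and all low punches were beneath it, at 9.72 ± 0.43 (SD, n = 5 each). The difference was 1.04 ± 0.17 (SE), and 0.88 without heterozygous 3. Vip, the vasoactive intestinal peptide of a class of cortical interneurons, had 9.39, 9.44, 8.95, 9.26 and 9.42 in the high punches and 8.26, 8.74, 8.59, 8.24 and 7.79 in the low punches. These did not overlap either, at a difference of 0.97 ± 0.17. Cck and Vip were the 2 of 8 measured interneuron markers that separated the groups, where 0.541% of all genes were higher without overlap. The other 6 lay between -0.07 ± 0.10 for Npy and 0.20 ± 0.27 for Calb2, with Sst at 0.04 ± 0.08 and Pvalb at 0.00 ± 0.16, and the median of the list was 0.05. Neurotensin, encoded by Nts and a peptide of septal and extended-amygdala neurons among others, ran the other way, with 9.38, 9.30, 9.21, 9.54 and 9.70 in the high punches and 9.84, 9.71, 10.16, 10.21 and 10.22 in the low punches. Each low punch was above each high one, with wild-type 5 and heterozygous 1 closest, and the difference was -0.60 ± 0.13. Among 4 measured markers of septal neurons Nts alone was lower and 3 were higher, with a list median of 0.06.

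**Figure D2:**
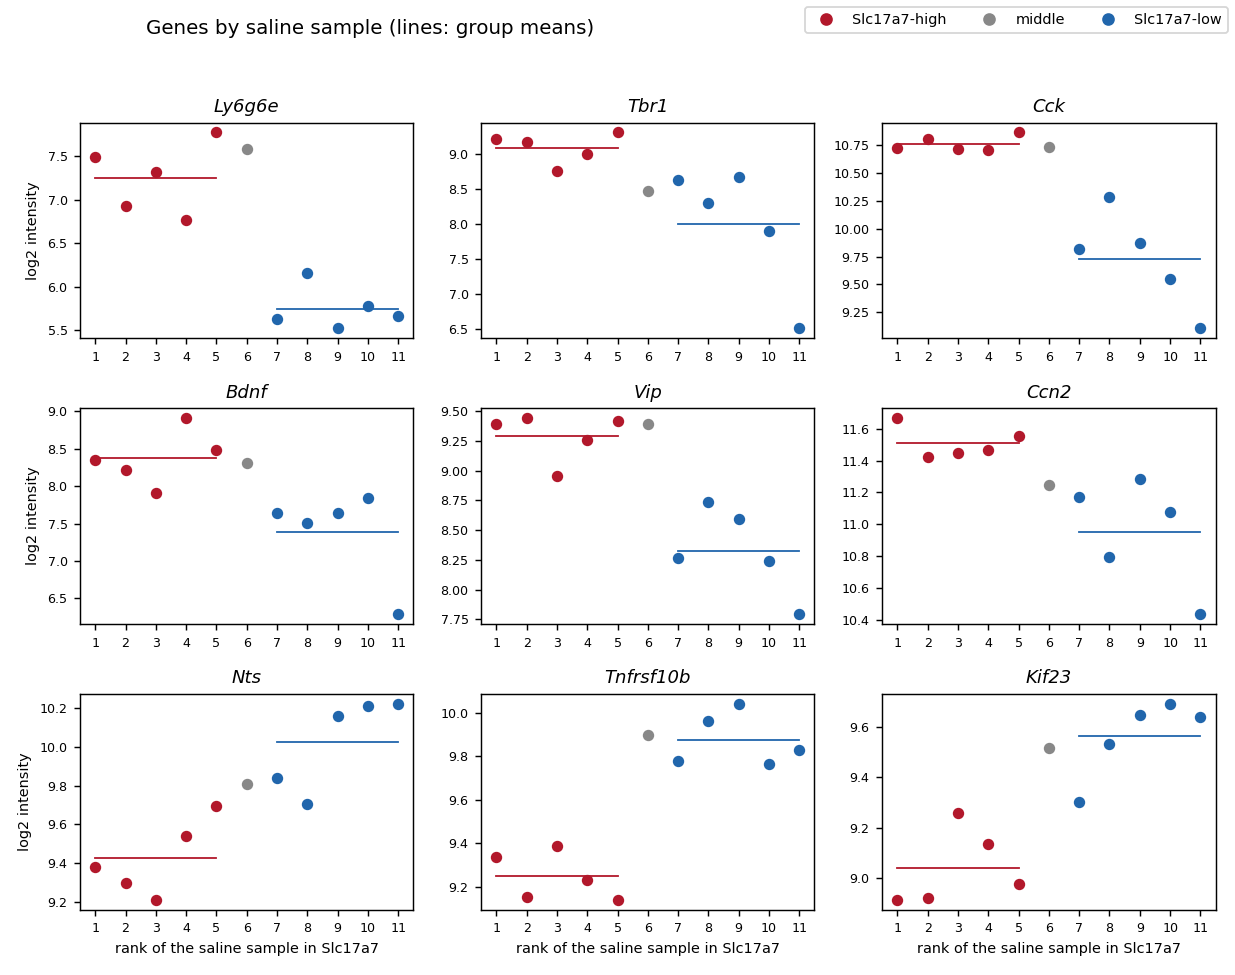
Log2 intensity (vertical axes) of 9 genes in the 11 saline punches ordered by their rank in Slc17a7 (horizontal axes, 1 for the most Slc17a7). Points are punches, coloured by group, and lines are the means of 5 punches. The upper 6 genes are higher in the Slc17a7-high punches, by 0.56 to 1.51, and the lower 3 are lower, by 0.52 to 0.62.

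The largest difference was that of Ly6g6e. Ly6g6e, a member of the Ly6 family of membrane-anchored proteins, had 7.48, 6.93, 7.32, 6.76 and 7.77 in the Slc17a7-high punches and 5.63, 6.15, 5.52, 5.78 and 5.66 in the Slc17a7-low punches. It was detected in 5 of 5 high and 1 of 5 low arrays of the raw table, so that its difference of 1.51 ± 0.19 sets a measured level against values mostly not above background. The high arrays alone met the filter of 5 saline arrays, so this detection pattern partly follows from the selection. Rspo3, a secreted enhancer of Wnt signalling, had 7.76, 8.21, 8.11, 7.59 and 7.69 in the high punches and 6.84, 7.57, 6.99, 6.85 and 5.65 in the low punches. The groups came close at wild-type 6 and heterozygous 1, and the difference was 1.09 ± 0.28. Bdnf, brain-derived neurotrophic factor, had 8.35, 8.22, 7.91, 8.91 and 8.48 in the high punches and 7.64, 7.51, 7.64, 7.85 and 6.29 in the low punches. The difference was 0.99 ± 0.27, and 0.71 without heterozygous 3. Ccn2, a matricellular growth factor and a marker of the deepest cortical layer, had 11.67, 11.42, 11.45, 11.47 and 11.55 in the high punches and 11.17, 10.79, 11.28, 11.08 and 10.44 in the low punches, a difference of 0.56 ± 0.15 without overlap. Vxn, which encodes vexin, known in the frog Xenopus as a regulator of neurogenesis, differed by 0.67 ± 0.19. Fhl2, a LIM-domain cofactor of transcription, differed by 0.58 ± 0.19, Sowahb, which encodes an ankyrin-repeat protein, by 0.72 ± 0.13, and the adhesion molecule gene Cntn5 by 0.66 ± 0.13. Acsf3, a mitochondrial malonyl-CoA synthetase, was higher by 0.66 ± 0.14.

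The genes lower in the Slc17a7-high punches had no common cell type among the lists. Tnfrsf10b, a receptor for the death ligand TRAIL, had 9.34, 9.16, 9.39, 9.23 and 9.14 in the high punches and 9.78, 9.96, 10.04, 9.76 and 9.83 in the low punches. Each group lay close together, and the left-out punch, at 9.90, was among the low values. The difference was -0.62 ± 0.09. Kif23, a mitotic kinesin, differed by -0.52 ± 0.10, and Arhgap33 by -0.50 ± 0.11. A further 11 genes were lower without overlap by less than 0.5. The larger ones were Hectd4 at -0.47 ± 0.10, Mlx at -0.45 ± 0.16, the monoamine transporter gene Slc29a4 at -0.43 ± 0.13, Sbsn at -0.40 ± 0.14, the Fc receptor gene Fcgr3 at -0.38 ± 0.10 and Cdc123 at -0.33 ± 0.09. Fkbp2 stood at -0.21 ± 0.08, and Prkar2b, a regulatory subunit of protein kinase A, at -0.27 ± 0.08. Prkar2b had 12.83, 12.78, 12.79, 12.68 and 12.86 in the high punches and 12.91, 13.13, 13.03, 13.07 and 13.14 in the low punches, and it was the only one of 12 measured dopamine and cAMP signalling genes whose groups did not overlap, where 0.162% of all genes were lower without overlap.

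Since heterozygotes were more frequent among the low punches, the leading genes were also read within each genotype, as the 3 highest against the 3 lowest of 6 wild-type punches and the 2 highest against the 2 lowest of 5 heterozygous punches. The 3 lowest wild types include wild-type 5, a Slc17a7-high punch, and the 2 highest heterozygotes include heterozygous 5, the punch left out. Of 39 genes followed in this way, 4 changed direction within heterozygotes (Egr2, Fos, Foxp1 and Foxp2) and 5 within wild types (Arc, Egr2, Fos, Foxp1 and Sbsn, the last at 0.02). Most of the 39 were chosen because these same punches did not overlap, which largely fixed their direction here. Their kept directions are therefore no separate support. All that turned, except Sbsn, came from the set followed whatever its values. Foxp1, a striatal relative of Foxp2, differed by -0.10 ± 0.15 in all punches and by 0.07 within each genotype. Tbr1 differed by 1.23 within heterozygotes and 0.38 within wild types, and Bdnf by 1.30 and 0.40. Cck differed by 1.28 within heterozygotes and 0.64 within wild types, Vip by 1.22 and 0.56, and Ly6g6e by 1.67 and 0.79. Fhl2 had only 0.14 within wild types, against 0.73 within heterozygotes, among which heterozygous 3 lies. Nts differed by -0.64 within heterozygotes and -0.54 within wild types, and Tnfrsf10b by -0.41 and -0.24. Whether the size of these differences depends on genotype was not tested.

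Promoter sequences are shown for a pair of excitatory transcription factors and a pair of peptides, because Tbr1, Cck and Vip separated the saline groups and Neurod2 is the other excitatory transcription factor described. Each is the 250 bases before the gene's start from RefSeq on GRCm38.p6, written 5′ to 3′ on the gene's strand, with capitals for a neuronal E-box (CAGATG) or the core of the cyclic AMP response element (TGACG, on either strand). The Tbr1 promoter is at chr2:61804203-61804452 on the plus strand, Neurod2 at chr11:98329646-98329895 on the minus strand, Cck at chr9:121495695-121495944 on the minus strand and Vip at chr10:5638968-5639217 on the plus strand.
Tbr1: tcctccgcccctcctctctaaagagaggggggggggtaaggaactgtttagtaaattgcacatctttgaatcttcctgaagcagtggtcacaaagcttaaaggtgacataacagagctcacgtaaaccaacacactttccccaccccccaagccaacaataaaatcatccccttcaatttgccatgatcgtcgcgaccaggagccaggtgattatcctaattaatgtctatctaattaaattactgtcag
Neurod2: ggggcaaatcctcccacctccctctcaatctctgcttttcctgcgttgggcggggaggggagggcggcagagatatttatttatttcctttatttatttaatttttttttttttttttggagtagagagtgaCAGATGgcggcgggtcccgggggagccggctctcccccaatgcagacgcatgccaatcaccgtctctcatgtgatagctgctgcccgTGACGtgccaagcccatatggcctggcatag
Cck: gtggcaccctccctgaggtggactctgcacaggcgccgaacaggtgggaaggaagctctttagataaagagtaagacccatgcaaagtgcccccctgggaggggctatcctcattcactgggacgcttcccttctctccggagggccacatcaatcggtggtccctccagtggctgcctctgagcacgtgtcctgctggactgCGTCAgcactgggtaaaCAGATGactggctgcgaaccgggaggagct
Vip: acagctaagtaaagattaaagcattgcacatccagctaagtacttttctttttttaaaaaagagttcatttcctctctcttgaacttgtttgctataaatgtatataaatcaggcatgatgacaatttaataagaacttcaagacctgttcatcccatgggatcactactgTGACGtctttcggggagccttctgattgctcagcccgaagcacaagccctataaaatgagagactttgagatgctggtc
In Neurod2 the E-box begins 118 bases and the core 31 bases before the start, and in Cck the E-box begins 30 bases and the core, on the opposite strand, 47 bases before it. Vip has a core 79 bases before its start, and Tbr1 holds neither run of letters. CAGATG was present in 14.4% and TGACG in 17.8% of 32851 promoters of this length. Of the 19 higher genes 13 had a promoter sequence, of which 3 held CAGATG (Cck, Acsf3 and Etl4) and 2 held TGACG (Cck and Vip). Of the 4 lower genes 2 had one, and both (Kif23 and Nts) held TGACG, while Nts also held CAGCTG. The other E-box CAGCTG, the full response element TGACGTCA and the T-box motif GGTGTGA, searched on both strands, were in 0 of the 13, and in 13.0%, 1.55% and 3.33% of all promoters. TGACG also lies within TGACGTCA.

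Other cortical lists did not move as a whole. Of 10 measured markers of deep cortical layers and subplate, 6 were higher and 4 lower in the Slc17a7-high punches, with a median difference of 0.08. Ccn2 did not overlap, and Fezf2, a factor of layer-5 projection neurons, differed by 0.38 ± 0.27. Of 5 markers of upper layers, 2 were higher and 3 lower, with a median of -0.06, from Lamp5 at -0.17 ± 0.12 to Cux2 at 0.15 ± 0.20. Of 5 markers of claustrum and endopiriform nucleus, 4 were higher, with a median of 0.09. Most of that list's size came from Nr4a2, an orphan nuclear receptor that is also an immediate-early gene, at 0.68 ± 0.18. Slc17a6, which encodes the subcortical transporter VGLUT2, had 10.20, 10.14, 9.95, 10.21 and 10.37 in the high punches and 9.63, 9.69, 9.98, 10.14 and 9.80 in the low punches. The groups overlapped, and the difference was 0.33 ± 0.12. The other markers of thalamic and subcortical excitatory neurons lay between -0.23 and 0.20, and hippocampal markers had a median of -0.10, with 1 of 5 higher.

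Cholinergic and basal forebrain markers lay on the opposite side. Of 7 measured markers of cholinergic neurons, 7 were lower in Slc17a7-high punches, with a median difference of -0.26, although in each the groups overlapped. These markers also ran with genotype: their mean deviation lay between 0.06 and 0.35 in the 5 heterozygous punches and between -0.33 and 0.27 in the 6 wild-type ones, 1 of which was above 0. Read by rank in Slc17a7 within each genotype, a reading chosen after seeing the data, it differed by -0.09 within heterozygotes and -0.12 within wild types, against -0.28 over all 10 punches. Chat, the enzyme that makes acetylcholine, was at -0.26 ± 0.14, the choline transporter gene Slc5a7 at -0.15 ± 0.18, and Ache, the enzyme that breaks acetylcholine down, at -0.35 ± 0.18. Of 4 basal forebrain, pallidal and preoptic markers, 4 were lower, with a median of -0.40. These were Nkx2-1 (-0.42 ± 0.14) and Lhx8 (-0.41 ± 0.18), transcription factors of the ventral forebrain, the neurotrophin receptor gene Ngfr (-0.39 ± 0.31) and Hap1 (-0.28 ± 0.13). Lhx8 stands in both lists. The mean deviation of the basal forebrain markers was -0.24, 0.34, -0.24, -0.23 and -0.51 in the high punches and -0.01, 0.35, -0.09, 0.27 and 0.47 in the low punches. Heterozygous 2, the only heterozygote among the high punches, was the one high punch above 0. By genotype the deviation lay between -0.12 and 0.47 in heterozygous and between -0.51 and 0.27 in wild-type punches, and the difference by rank was -0.08 within heterozygotes and -0.15 within wild types, against -0.37 over all 10. How much of these differences goes with genotype and how much with Slc17a7 was not tested.

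**Figure D3:**
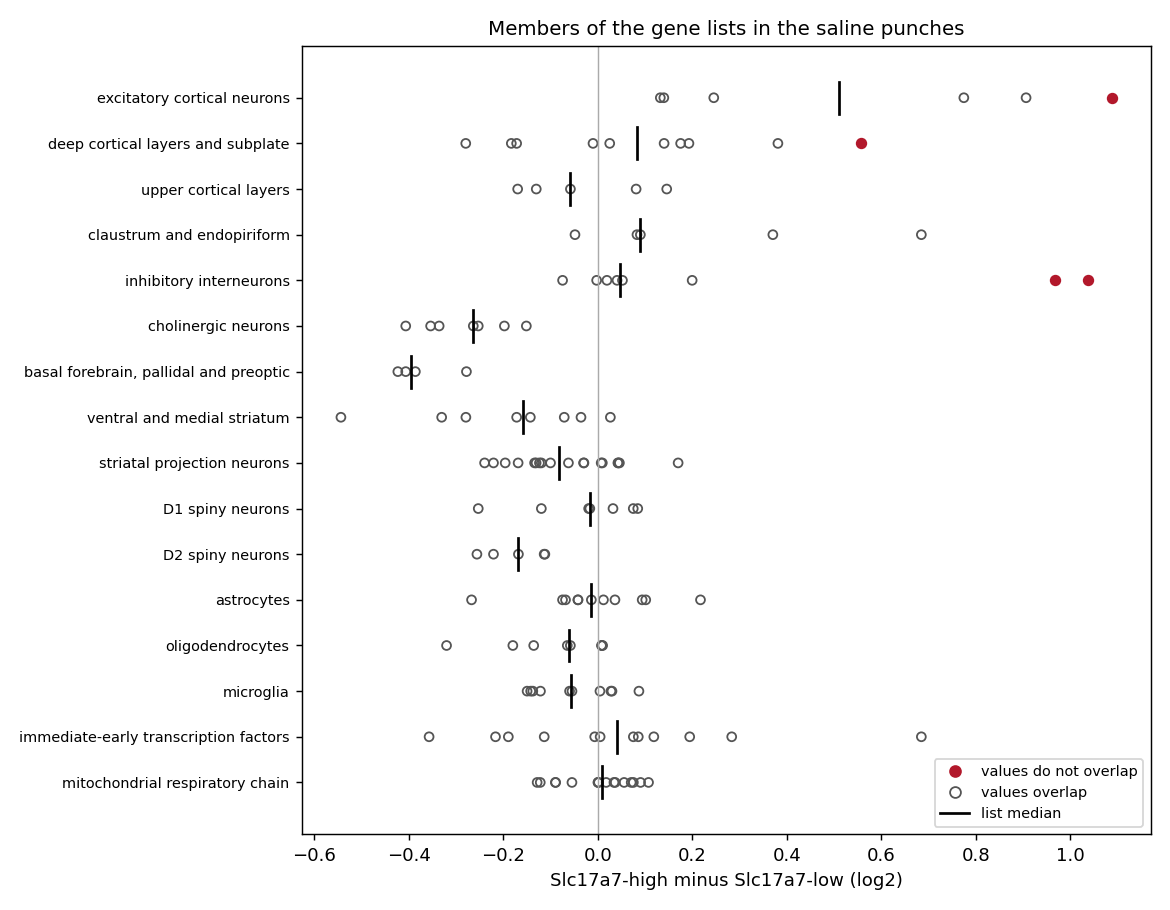
Difference in log2 intensity, Slc17a7-high minus Slc17a7-low punches (horizontal axis), of each measured member of 16 marker and pathway lists (rows), without Slc17a7 itself. Points are genes, filled where the 5 high and 5 low values do not overlap, and bars are list medians. Excitatory cortical markers lie to the right of 0 (median 0.51) and cholinergic and basal forebrain markers to the left (medians -0.26 and -0.40), while most other lists straddle 0.

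Striatal markers differed little. Of 18 measured markers of striatal projection neurons, 6 were higher and 12 lower in Slc17a7-high punches, with a median of -0.08 and a range from -0.24 to 0.17. Drd1 had 12.66, 12.65, 12.71, 12.76 and 12.85 in the high punches and 12.79, 12.52, 12.82, 12.91 and 12.69 in the low punches, a difference of -0.02 ± 0.09. Drd2 had 10.02, 9.99, 9.79, 9.65 and 9.71 in the high punches and 10.16, 10.18, 10.37, 9.82 and 9.91 in the low punches. The groups overlapped, and the difference was -0.26 ± 0.12. All 5 measured markers of D2 neurons were lower, with a median of -0.17, among them Penk, the enkephalin precursor, at -0.22 ± 0.10. The 7 markers of D1 neurons had a median of -0.02. Of 8 markers of ventral and medial striatum 7 were lower, with a median of -0.16, led by Dlk1 at -0.54 ± 0.16 and Wfs1 at -0.33 ± 0.19. Chosen as examples from lists whose groups overlapped, these members were named after their values were seen, as were those of the lists above that overlapped. The ventral and medial markers also ran with genotype. Their mean deviation lay between 0.01 and 0.30 in heterozygous and between -0.25 and 0.15 in wild-type saline punches. Drd2 differed by -0.23 within heterozygotes and -0.07 within wild types. How much of these differences goes with genotype was not tested.

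Glial, vascular and housekeeping lists were flat. The medians of the astrocyte, oligodendrocyte, microglial, and endothelial and mural lists lay at -0.01, -0.06, -0.06 and -0.04. Of their measured genes 0 separated the groups, where 0.541% of all genes were higher and 0.162% lower without overlap. At that share, lists this short would seldom hold such a gene, so the count adds little to the medians. Mitochondrial respiratory chain genes had a median of 0.01 over 16 members and ribosomal protein genes -0.02 over 8. Pan-neuronal markers had a median of 0.03 over 9 members.

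Genes induced by neuronal activity were compared as well, since Bdnf and Nr4a2 belong to them. Fos, the prototype of immediate-early genes, had 9.05, 9.48, 9.08, 9.86 and 10.55 in Slc17a7-high punches and 9.34, 8.95, 9.90, 9.34 and 9.53 in Slc17a7-low punches. The highest value was that of wild-type 5, a high punch, and the other values were mixed between groups. The difference was 0.19 ± 0.27, against 0.10 ± 0.15 for Arc, a synaptic immediate-early gene, and 0.12 ± 0.19 for the transcription factor gene Egr2. Within heterozygotes and within wild types Fos differed by -0.10 and -0.41, Egr2 by -0.12 and -0.12, and Arc by 0.06 and -0.05, so these small differences had no settled direction. The 12 immediate-early transcription factors had a median of 0.04, with 7 higher and 5 lower. Of the 12, 0 separated the groups, which says little where 0.541% of all genes were higher and 0.162% lower without overlap. Of 17 activity-regulated effector genes, 13 were higher, with a median of 0.07, and of these Bdnf alone separated the groups, with Nrn1, encoding the secreted neurite factor neuritin, at 0.85 ± 0.33 (0.49 without heterozygous 3). The genes earlier called higher after cocaine in these mice, a list drawn from these same saline samples and so not independent, had a median of 0.16 over 27 measured members, 20 of them higher. Of these 27, 5 (Bdnf, Tbr1, Ly6g6e, Cck and Vip) were higher without overlap, as were 0.541% of all genes.

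Whether the same genes vary with Slc17a7 in other animals was asked in the 12 cocaine punches, none of which the ranking had used. Slc17a7 lay between 10.77 and 12.28 (median 11.78) in the 6 heterozygous and between 10.68 and 11.65 (median 11.30) in the 6 wild-type cocaine punches. For each of the 9245 genes a slope on Slc17a7 was fitted with limma, with genotype as a term, 9 residual degrees of freedom and Benjamini-Hochberg adjustment over all genes. There 30 genes passed an adjusted p of 0.05, of which 23 rose with Slc17a7 (0.249%) and 7 fell (0.0757%), and 1164 genes had an unadjusted p under 0.05. A slope of 1 means that a gene changed as much as Slc17a7 on the log2 scale.

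Excitatory transcription factors were among the called genes. Neurod2 lay between 9.66 and 11.40 (median 10.85) in the heterozygous and between 9.33 and 10.77 (median 10.28) in the wild-type cocaine punches. Its highest values were in the punches with the most Slc17a7, and its slope was 1.16 ± 0.15 (SE, n = 12, limma adjusted p = 0.00395). Tbr1 had a slope of 1.18 ± 0.17 (limma adjusted p = 0.0118). Cck rose with a slope of 0.95 ± 0.14 (limma adjusted p = 0.0118), and Bdnf with 1.12 ± 0.18 (limma adjusted p = 0.0229). Fhl2 had 1.09 ± 0.14 (limma adjusted p = 0.00395) and Vxn 0.82 ± 0.16 (limma adjusted p = 0.0481). The smallest p was that of Igsf21, a synaptic adhesion molecule, with a slope of 0.94 ± 0.10 (limma adjusted p = 0.00258) and a saline difference of 0.41 ± 0.17 whose groups overlapped. Other genes that rose included the pentraxin gene Nptx1 (slope 0.92), the AMPA receptor auxiliary subunit gene Cnih3 (0.82), the scaffold gene Dlgap1 (0.52) and the adhesion gene Slitrk1 (0.49).

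**Figure D4:**
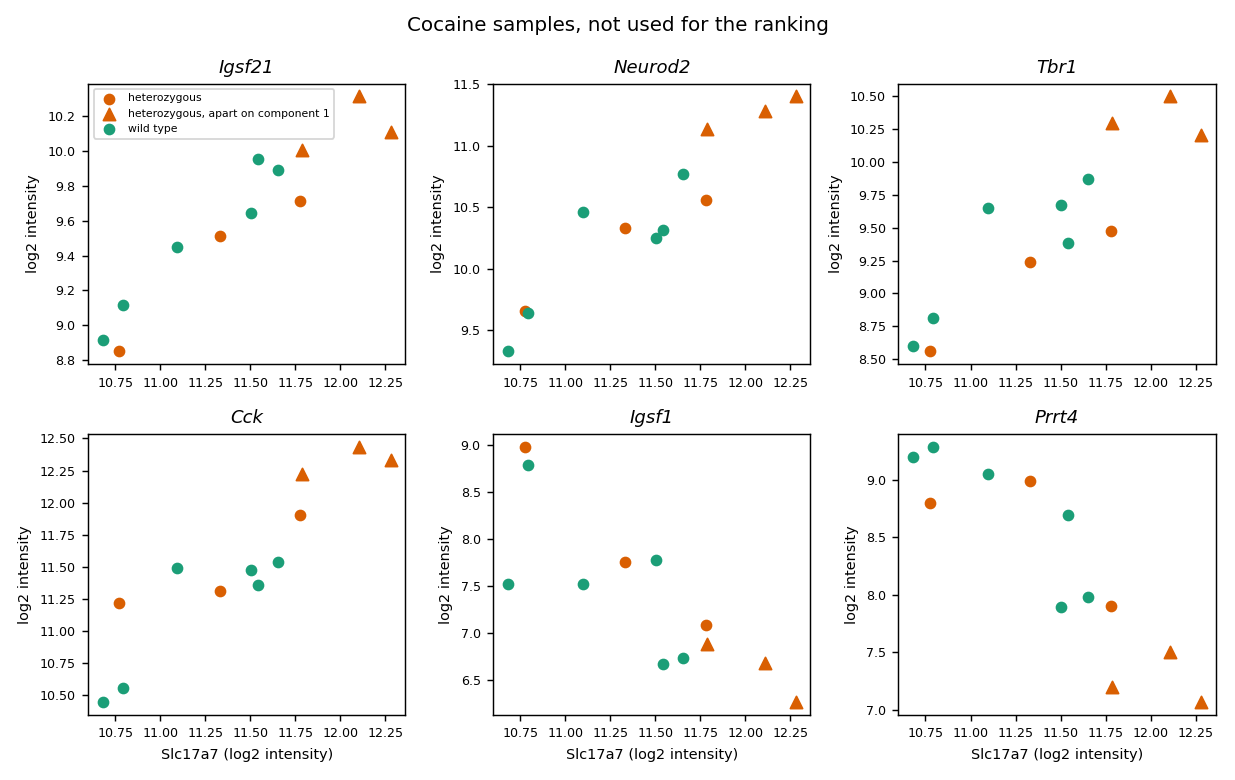
Log2 intensity of 6 genes (vertical axes) against Slc17a7 (horizontal axes) in the 12 cocaine punches, 6 heterozygous and 6 wild type. Triangles mark the 3 heterozygous punches that stand apart on the first principal component of all 23 samples. Igsf21, Neurod2, Tbr1 and Cck increase with Slc17a7 (slopes 0.94 to 1.18) and Igsf1 and Prrt4 decrease (slopes -1.57 and -1.28).

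Among the genes that fell with Slc17a7, Igsf1, a membrane glycoprotein of the immunoglobulin family, had the steepest slope, -1.57 ± 0.25 (limma adjusted p = 0.0212). It lay between 6.27 and 8.98 (median 6.98) in the heterozygous and between 6.66 and 8.79 (median 7.52) in the wild-type cocaine punches. In saline it had overlapping groups and a difference of -0.43 ± 0.36. Prrt4 fell with a slope of -1.28 ± 0.21 (limma adjusted p = 0.0229), but its saline difference was 0.28 ± 0.32. The presynaptic priming factor gene Unc13c (-0.72), Scube3 (-0.84), Nrsn2 (-0.58), Syndig1l (-0.78) and Lrrc1 (-0.57) also fell. Chat had a slope of -1.05 (limma adjusted p = 0.0516), Slc5a7 -0.83 (adjusted p = 0.0516) and Isl1, a transcription factor of cholinergic and D1 neurons, -0.84 (adjusted p = 0.0516), none of which passed.

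The 2 sets of animals can be compared because no sample is shared. Of the 30 called genes, 29 had a saline difference in the direction of their slope, namely 23 of the 23 that rose with Slc17a7 and 6 of the 7 that fell, with Prrt4 as the exception. Over all 9245 genes, 4890 were higher in the Slc17a7-high saline punches and 4376 had a positive slope. Genes that vary together are not independent, so the counts of direction were given no test. Of the 23 genes that separated the saline groups by 0.5 or more, 5 were called in the cocaine punches, against the 0.249% of all genes called with a positive slope: Tbr1, Cck, Bdnf, Vxn and Fhl2. Of the 19 higher ones 18 had a positive slope, with Acsf3 at -0.25 as the exception, and 4 of the 4 lower ones had a negative slope. The slopes of these 4 were -0.07 for Tnfrsf10b, -0.13 for Kif23, -0.33 for Arhgap33 and -0.74 for Nts, and none was called. Several large saline differences did not pass in the cocaine punches: Ly6g6e (slope 0.92, limma adjusted p = 0.163), Rspo3 (slope 0.70, adjusted p = 0.0597), Vip (slope 0.93, adjusted p = 0.0732), Sowahb (slope 0.85, adjusted p = 0.0513), Nts (slope -0.74, adjusted p = 0.175) and Tnfrsf10b (slope -0.07, adjusted p = 0.929). Cntn5 had a slope of 0.19. Across the 9245 genes, which are not independent replicates, the saline difference and the cocaine slope had a Pearson correlation of 0.340 and a Spearman rank correlation of 0.246.

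**Figure D5:**
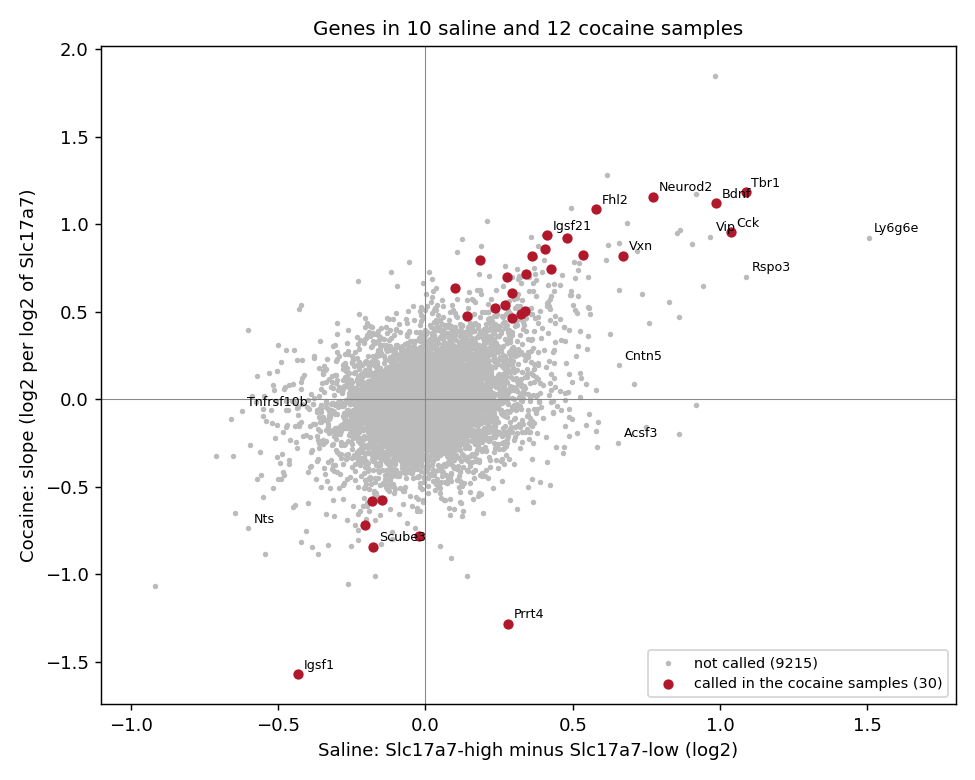
Difference in log2 intensity between Slc17a7-high and Slc17a7-low saline punches (horizontal axis) against the slope on Slc17a7 in the 12 cocaine punches (vertical axis) for 9245 genes. Red points are the 30 genes called in the cocaine fit; 29 lie in the upper right or lower left, and Prrt4 lies in the lower right.

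The number of called genes rested on single samples. Without heterozygous cocaine 3 it was 0 (767 genes at an unadjusted p under 0.05), without wild-type cocaine 6 it was 10, without heterozygous cocaine 2 it was 11, without heterozygous cocaine 4 it was 12, without wild-type cocaine 2 it was 13 and without heterozygous cocaine 6 it was 18. It was 49 without heterozygous cocaine 1, 46 without wild-type cocaine 3 and 57 without wild-type cocaine 4. The heterozygous cocaine punches 2, 4 and 5 stood apart on the first principal component of all samples, at 21.3, 22.4 and 20.6 where the next sample had 12.4. These punches also had the most Slc17a7, at 12.28, 12.11 and 11.79, the last just above heterozygous cocaine 1 at 11.78. Leaving them out therefore also cuts off the top of the Slc17a7 range. Without them limma called 0 genes (559 at an unadjusted p under 0.05), and in the wild-type cocaine punches alone it called 0 (527). The slopes of leading genes kept their direction in these fits. These genes were chosen by their slopes over all 12 punches, which include those refitted, and that largely fixed their direction. Their kept directions are therefore no separate support. Without those 3 punches the slope was 1.02 for Tbr1, 1.05 for Neurod2, 0.91 for Cck and 0.94 for Igsf21, and in the wild-type punches alone it was 1.07, 1.12, 1.06 and 0.98 for these genes.

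Cocaine minus saline values are set beside the saline split because several of its genes had been called with cocaine. Both comparisons use the saline punches, so their likeness is no separate evidence. Cocaine minus saline, averaged over genotypes, was 1.10 ± 0.24 (SE) for Slc17a7 itself, with means of 11.68 and 11.21 in heterozygous and wild-type cocaine punches, against 10.09 and 10.60 in heterozygous and wild-type saline punches. For Tbr1 it was 1.01 ± 0.27, and -0.14 ± 0.16 with Slc17a7 as a covariate. For Neurod2 it was 1.20 ± 0.24, and 0.20 ± 0.15 with the covariate, and for Cck 1.25 ± 0.22 and 0.37 ± 0.15. For Bdnf it was 1.51 ± 0.24 without and 0.59 ± 0.20 with the covariate. The immediate-early genes moved less with the covariate: Fos had 1.46 without and 1.42 with it, Egr2 1.99 and 2.05, and Arc 1.19 and 1.05. Tbr1, Neurod2, Cck and Bdnf had been called for their slope on Slc17a7 in cocaine punches that enter this fit. Fos, Egr2 and Arc had slopes of 0.21, -0.46 and 0.23 and were not called. The contrast between these sets therefore largely follows from the choice of genes, and its cause was not tested.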

How the data were processed

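Punches of 23 mice were measured on 1 array each. Per the labels' protocols, the mirVana kit was used to extract total RNA, which was labelled as biotinylated cRNA with the Illumina TotalPrep-96 kit. The deposited raw table gives the intensity of each probe, which per the file headers is not normalized, and between 24.9% and 30.3% of values per array were below 0. It also gives a detection p-value per probe and array, per the file headers. The values analysed are the authors' processed values, which were deposited without a stated scale. They lie on a log2 scale with the same sorted values on every array, as read from the deposited values. They cover 16253 probes, and 29028 are null. Software and build behind them are not given in the sources used here.

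A gene was represented by its probe of highest mean over the saline samples and kept when detected (p under 0.01) on at least 5 saline arrays, which left 9246 of 9274 genes. Columns of the raw table name the group and an array number but not the replicate, so detection on Slc17a7-high and Slc17a7-low arrays was counted after ranking the arrays of that table by their own Slc17a7 value. Differences, SEs and slopes came from limma 3.58.1 in R 4.3.3, tested on simulated data. Of the kept probes 14081 had 1 gene symbol, 6 several and 2166 none. The high-minus-low contrast was given no test, because the groups were made from these samples. Named were the 12 largest non-overlapping differences in each direction, up to 4 non-overlapping members of each list, the 6 smallest p in each direction of the cocaine fit and a fixed set (Slc17a6, Foxp1, Foxp2, Drd1, Drd2, Bdnf, Fos, Arc, Egr2). The members, lists and tests were chosen with earlier results of these data known. The labels call the samples biological replicates, and p-values measure the spread between these animals. The number of arrays limits the precision. Alternatives were other values and normalization (neqc), group sizes, rankings, filters, covariates and samples left out. Of the 5 genes in a list of sex-linked genes, 0 were among those kept.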

Additional observations from a re-analysis of the deposited data

Results flagged for a closer look

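Among 66 groups of 5 values checked, 2 held a punch far from its neighbours by Dixon's criterion, where chance alone flags about 1 in 20. In the Slc17a7-low punches Bdnf was 6.29 in heterozygous saline 3, and the next value was 7.51. In the same punch Sowahb was 7.29, where the next value was 7.79. Heterozygous saline 3 was also the punch with the least Slc17a7.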

How the results depend on the processing

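The 23 genes that separated the saline groups by 0.5 or more numbered 28 with neqc values, 33 with quantile-normalized raw values, 16 when ranked by the excitatory list and 21 when detected on all saline arrays. They numbered 239 for 3 highest against 3 lowest, 54 for 4 against 4, 37 when all probes were counted, 4 at a difference of 1, 44 with genotype and sex removed, 113 in wild-type and 364 in heterozygous saline punches alone, and 120 with neqc values and blocks of 6 array numbers, an alternative chosen after seeing the data. In the raw table the Slc17a7-high arrays had numbers 5, 6, 2, 20 and 17, and the Slc17a7-low arrays 7, 1, 18, 15 and 14. They were thus unevenly spread over those blocks, and what the array numbers stand for is not stated. Smaller groups overlap less by construction. Fitting and removing covariates or blocks likewise narrows the spread within groups by construction, but how much of each count this accounts for was not tested. For the other settings the cause was not tested. Without each punch in turn the count was 19 to 46. The 30 genes called in the cocaine fit numbered 209 with no genotype term, 18 with genotype and sex, 7 without the 2 punches farthest in Slc17a7, 0 without the 3 apart on the first component (559 at an unadjusted p under 0.05), 0 in wild-type (527 at an unadjusted p under 0.05) and 1 in heterozygous punches alone, 130 with trend and robust moderation and 12 with neqc values and array blocks; leaving out each punch gave 0 to 57. The cause was not tested. With the replicate number as a block, the saline count was 625 and the limma cocaine count 0 (1018 at an unadjusted p under 0.05). In the labels the numbers follow sex in part (1 and 2 male, 4 to 6 female), but they name no shared litter or day: same-numbered samples correlated with -0.08 to 0.42 in saline and -0.01 to 0.35 in cocaine, and the best partner was the same-numbered one for 2 of 6 wild-type and 2 of 5 heterozygous saline and 2 of 6 and 1 of 6 cocaine samples. A second Slc17a7 probe for the ranking gave no value, since 1 was measured. All called slopes kept their sign, which their choice from these same punches largely fixed.

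Slopes that were not called changed sign as follows. Fcgr3 was 0.112 with no genotype term, 0.00796 with the replicate block, 0.0456 without the 2 farthest, 0.135 without the 3 apart, 0.0212 in heterozygous punches and -0.141 to 0.0718 without each punch. Mlx was -0.0214 with genotype and sex, -0.0293 with the block, -0.0845 without the 3 apart, -0.0727 in heterozygous punches and -0.0466 with array blocks. Tnfrsf10b was 0.0166 with genotype and sex, 0.0518 with the block and -0.151 to 0.00955 without each punch. Foxp1 was 5.81e-04 with the block, 0.0862 without the 3 apart and 0.174 in wild-type punches. Without the 3 apart Fos was -0.0793 and Arc -0.0017, and in wild-type punches Fos was -0.0489, Arc -0.279 and Acsf3 0.0347. Cdc123 was -0.189 to 0.119 without each punch.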

Other observations

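Genes that are null in the authors' table were read from the raw intensities after neqc, with arrays ranked by their own Slc17a7 value. Of such genes detected on at least 5 saline arrays, 8 differed by at least 0.5 without overlap. Their share of all such genes was not computed. Nmbr, the neuromedin B receptor gene, averaged 7.45 ± 0.32 in the 5 Slc17a7-high and 6.11 ± 0.62 in the 5 Slc17a7-low arrays (SD). It was detected on 5 and 3 of them. Adcyap1, which encodes the peptide PACAP, and Mkx, a homeobox factor, were detected on 5 of 5 high arrays and 0 of 5 low arrays. They were at least 1.21-fold and at least 1.24-fold higher. Both passed the detection filter without any low array, and overlapping genes were left out, so this pattern largely follows from the selection. Lrrc45 was detected on 2 of 5 high and 5 of 5 low arrays and Cldn7, a tight-junction protein, on 1 of 5 high and 4 of 5 low arrays, so their lower levels in the high arrays were mostly not above background.

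Prrt4, which fell with Slc17a7 in the cocaine punches, lay between 7.80 and 8.33 in the 5 heterozygous saline punches and between 8.94 and 9.65 in the 6 wild-type ones, so that in saline its values separated by genotype rather than by Slc17a7. It was singled out after its values were seen. The lowest difference of all in the saline split, with overlapping groups, was that of AW551984 at -0.92, whose slope in the cocaine punches was -1.07 (limma adjusted p = 0.225).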
